A study of Rattus norvegicus with 4 samples.

Results

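Leiomodins, tropomodulins, formins and nebulette are proteins that set the length of actin thin filaments and hold their ends. The genes were taken by name from a list of 8, and 7 were matched among the 32883 genes of the count table: Lmod3, Tmod1, Tmod3, Fhod1, Fhod3, Daam1 and Nebl. Lmod2 was not matched and is not analysed here. Each of the 7 names belonged to 1 identifier, and all 7 passed the filter on low counts, which kept 15257 genes.

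The samples were ventricular cardiomyocytes from Sprague-Dawley rats at postnatal day 2, depleted of cells that attached early and grown with serum. Transcripts were read by strand-specific sequencing of rRNA-depleted RNA in 2 libraries of cells given 20 µM phenylephrine (PE) for 24 h and in 2 libraries of untreated cells. PE is an agonist of alpha-1 adrenergic receptors, widely used to bring about hypertrophic growth in culture. Whether replicates came from separate cultures is not stated, and every p-value below therefore reflects only how far these samples differ, a spread that may be technical. Total counts ran from 45637881 to 56948370 per library. Mitochondrial-genome transcripts took 6.19% and 11.7% of counts in control replicates 1 and 2, and 4.61% and 4.76% in the PE libraries. All 6 matched cardiomyocyte markers were abundant in every library, with a summed level of 12208 and 13625 CPM (counts scaled by library size and TMM factor) in the controls and 11142 and 12100 CPM with PE, and 0 of the 6 passed in edgeR (at an unadjusted p under 0.05, 1 was higher and 2 lower; DESeq2 called Actn2 higher and Pln lower).

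In a sarcomere the barbed ends of actin filaments are anchored at the Z-disc and the pointed ends lie toward the middle. Tropomodulins cap pointed ends and stop growth, while leiomodins, their relatives, nucleate actin and act at the pointed end without closing it. Formins nucleate unbranched filaments and stay on the barbed end as it grows, and nebulette, a small relative of nebulin, runs along the thin filament near the Z-disc of heart muscle.

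With PE, transcripts of Lmod3, Fhod3 and Nebl fell, and those of Tmod1, Tmod3, Fhod1 and Daam1 did not pass the test. The falls were 2.54-fold for Lmod3, 1.67-fold for Fhod3 and 1.84-fold for Nebl. Of the 7 genes, 3 were lower and 0 higher by edgeR's quasi-likelihood test at a Benjamini-Hochberg adjusted p under 0.05, where 8.3% of all tested genes were lower and 7.39% higher. At an unadjusted p under 0.05, 0 of the 7 were higher, and DESeq2 also called 3 lower and 0 higher. The median log2 fold change was -0.44 over the 7 genes and -0.01 over all tested genes.

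**Figure D1:**
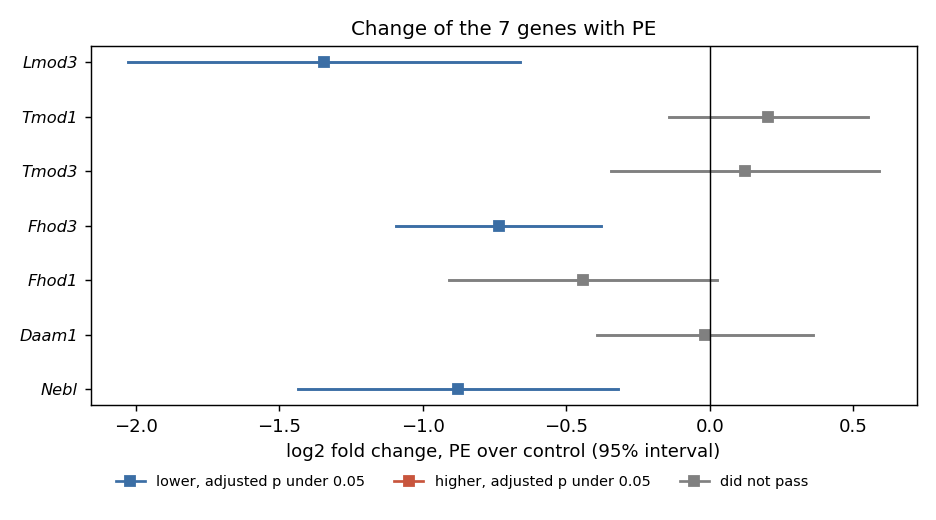
Log2 fold change of each gene, PE over control, from the fit over all genes; squares are estimates and lines their 95% intervals, blue where the adjusted p was under 0.05. The intervals of Lmod3, Fhod3 and Nebl lie below 0, and those of Tmod1, Tmod3, Fhod1 and Daam1 include 0.

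The stretches before the annotated starts of the 3 genes that fell are shown because these genes moved in the same direction. The stretch of Fhod3 differs in base composition from those of Lmod3 and Nebl. Each holds the 250 bases upstream of a RefSeq start in build GRCr8, at chr4:131415412-131415661 (minus strand) for Lmod3, chr18:16267761-16268010 (plus strand) for Fhod3 and chr17:85135297-85135546 (minus strand) for Nebl. Capitals mark matches on either strand to any of 6 motifs: the CArG box bound by SRF, the MEF2 site, CATTCC (the M-CAT element of TEAD factors), the GATA element GATAAG, the TATA box TATAAA and the E-box CANNTG.
Lmod3: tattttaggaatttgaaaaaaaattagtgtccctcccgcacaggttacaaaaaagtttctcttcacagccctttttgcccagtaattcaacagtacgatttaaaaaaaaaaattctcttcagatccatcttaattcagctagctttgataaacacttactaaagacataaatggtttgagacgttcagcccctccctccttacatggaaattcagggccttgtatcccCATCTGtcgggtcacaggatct
Fhod3: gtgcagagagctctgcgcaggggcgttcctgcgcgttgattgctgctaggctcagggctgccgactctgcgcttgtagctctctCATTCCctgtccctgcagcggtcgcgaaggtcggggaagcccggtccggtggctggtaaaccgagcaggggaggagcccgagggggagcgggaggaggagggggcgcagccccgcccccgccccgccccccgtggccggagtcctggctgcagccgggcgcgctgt
Nebl: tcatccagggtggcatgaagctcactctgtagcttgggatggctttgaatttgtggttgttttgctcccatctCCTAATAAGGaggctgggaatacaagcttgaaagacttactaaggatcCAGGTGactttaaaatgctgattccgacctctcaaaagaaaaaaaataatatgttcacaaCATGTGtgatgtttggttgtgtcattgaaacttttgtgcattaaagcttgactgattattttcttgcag

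The Nebl stretch held a CArG box, CCTAATAAGG, beginning 177 bases before the start, and 2 E-boxes. CArG boxes were found in 1.5% of the 33465 RefSeq stretches of the same length, and E-boxes in 65.5%. The Fhod3 stretch held 1 CATTCC, beginning 166 bases before the start and found in 12.1% of all stretches, and the Lmod3 stretch held 1 E-box and none of the other 5 motifs. GC content was 38.4% before Lmod3, 39.2% before Nebl and 72.4% before Fhod3. The Nebl start lies 239552 bases inside the annotated gene and its stretch ends in ag, as a splice acceptor does, so whether it is a transcription start is not known here. Of the Fhod3 stretch, 181 bases lie inside the annotated gene. Lmod3 and Fhod3 each have another start in the table, and the first is shown. Before the other Lmod3 start, GC content was 51.6% and there were 3 E-boxes, and before the other Fhod3 start GC content was 75.2% with the same CATTCC. These matches are descriptions of the letters, and no binding was measured.

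Lmod3 (ENSRNOG00000032443), a leiomodin of skeletal and heart muscle whose loss causes nemaline myopathy, was measured from few reads. It had 129 and 171 counts in the first and second control, and 69 and 56 with PE. In CPM these were 2.4 and 3.75 in the controls and 1.23 and 1.19 with PE. Both PE libraries lay below both controls, and the controls differed from each other more than the PE libraries did. The mean went from 3.08 ± 0.953 CPM to 1.21 ± 0.0305 CPM (SD, n = 2 each), a log2 fold change of -1.34 ± 0.31 (SE; edgeR adjusted p = 0.0145). The call held with each library left out in turn, with log2 fold changes from -1.63 to -0.99.

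Both PE libraries being below both controls was also seen in 28.1% of all tested genes, and both being above in 28.5%. Among the 7 genes, 4 had PE below control (Lmod3, Fhod1, Fhod3 and Nebl), 1 had PE above control (Tmod1), and 2 overlapped (Tmod3 and Daam1). In these bulk samples, fewer cells of a type and less RNA per cell cannot be told apart.

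**Figure D2:**
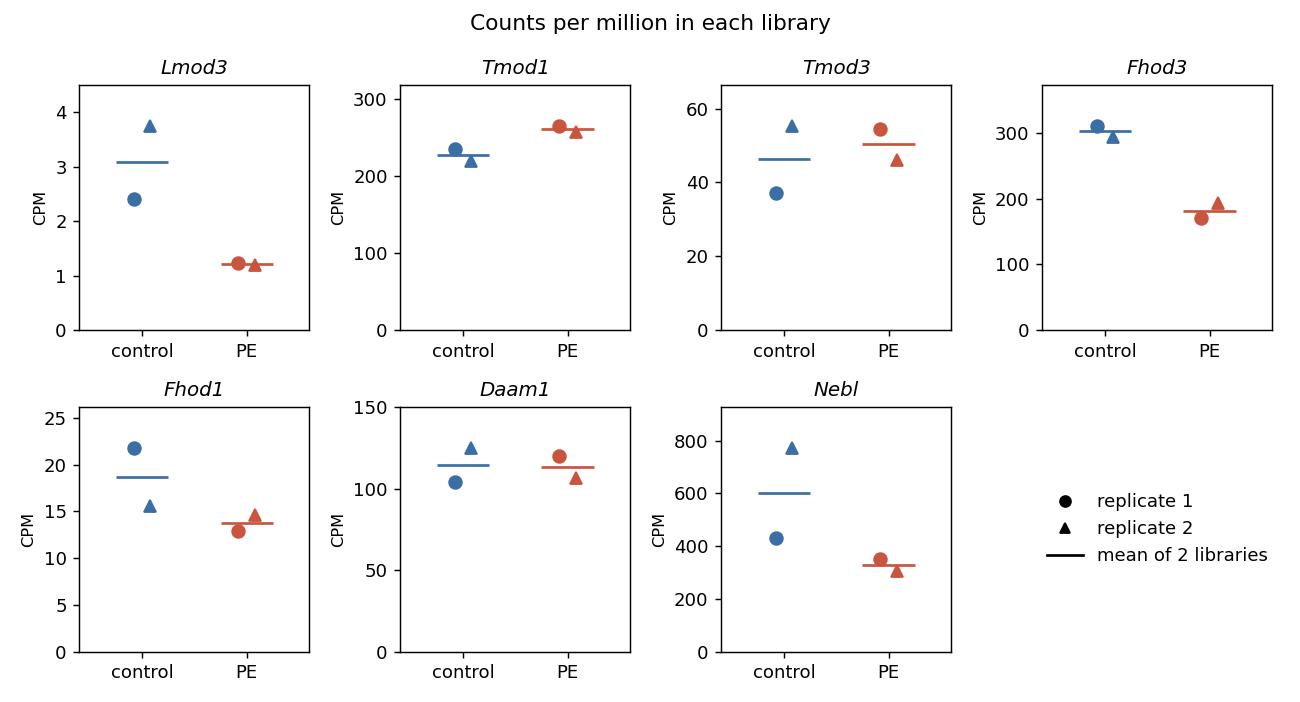
Level of each gene in each library, in CPM on axes that start at 0; circles are replicate 1, triangles replicate 2, lines the mean of 2 libraries. Lmod3, Fhod3 and Nebl are lower in both PE libraries, and the 2 Nebl controls stand at 430 and 774 CPM. Levels are not per length, so panels are not to be compared with each other.

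The tropomodulins did not pass. Tmod1 (ENSRNOG00000009761), the pointed-end cap of heart muscle and red cells, stood at 235 and 220 CPM in the controls and at 266 and 258 CPM with PE. Its groups did not overlap, but its log2 fold change was only 0.20 ± 0.16 (edgeR adjusted p = 0.444), with a 95% interval from -0.14 to 0.55. Tmod3 (ENSRNOG00000032436), the tropomodulin of many non-muscle cells, stood at 37.1 and 55.4 CPM in the controls and 54.5 and 46.1 CPM with PE. The control pair spanned both PE values, and the log2 fold change was 0.12 ± 0.21 (edgeR adjusted p = 0.756; 95% interval -0.34 to 0.59). These intervals leave room for a moderate change of either gene. Other annotated genes overlap both in GRCr8, Tstd2 for Tmod1 and an lncRNA for Tmod3, so their counts may hold reads of these. Tmod3 turned to -0.13 without control replicate 1, and was at 0.44 when control replicate 2 was left out instead.

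The balance between the 2 tropomodulins was read from their counts within each library, which no scaling can alter. There were 6.34 and 3.97 Tmod1 counts per Tmod3 count in the controls and 4.88 and 5.60 with PE. The PE values lay between the control values, and the difference in mean log2 ratio was 0.06 (exact two-sided permutation p = 1, the smallest possible with 2 against 2 being 0.333). Without control replicate 2 it was -0.28 and without PE replicate 2 it was -0.04.

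Of the formins, Fhod3 (ENSRNOG00000027230), the formin that heart muscle needs to build and keep its sarcomeres, fell. It stood at 312 and 295 CPM in the controls and at 171 and 193 CPM with PE. The gap between the groups was several times the difference within either pair. The mean went from 303 ± 11.8 CPM to 182 ± 15.7 CPM (SD, n = 2 each), a log2 fold change of -0.74 ± 0.16 (SE; edgeR adjusted p = 0.0114; 95% interval -1.09 to -0.38). It was at -0.65 without PE replicate 1 and at -0.82 without PE replicate 2, and neither fit called it. Its SE in both fits, 0.36, was near that of Tmod1 (0.35 and 0.34) and that of Nebl (0.37 and 0.36). The log2 difference between the controls was -0.08 for Fhod3, -0.10 for Tmod1 and 0.85 for Nebl. Among these genes the SE in those fits thus hardly followed how close the controls were. Annotated lncRNAs and a pseudogene overlap Fhod3 in GRCr8, and the strand setting of the counting is not given in the sources used here, so a share of its reads may be theirs.

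Fhod1 (ENSRNOG00000054625), the widely expressed relative of Fhod3, stood at 21.8 and 15.6 CPM in the controls and 12.9 and 14.7 CPM with PE. Both PE values were lower, but control replicate 2 was close to PE replicate 2. The log2 fold change was -0.44 ± 0.21 (edgeR adjusted p = 0.199; 95% interval -0.91 to 0.03). It was at -0.17 without control replicate 1 and at -0.66 without control replicate 2. Daam1 (ENSRNOG00000004345), a formin that acts downstream of Dishevelled, stood at 104 and 125 CPM in the controls and 120 and 106 CPM with PE. The 2 groups covered nearly the same range. Its log2 fold change was -0.02 ± 0.17 (edgeR adjusted p = 0.962; 95% interval -0.39 to 0.36).

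Within each library there were 14.3 and 18.9 Fhod3 counts per Fhod1 count in the controls and 13.2 and 13.2 with PE. The PE values were lower than both controls, by a mean of 0.31 on the log2 scale (log2 difference -0.31; exact permutation p = 0.333, the smallest possible, and 0.667 adjusted over the 2 planned ratios). The size rested on control replicate 2, with a difference of -0.11 without it. The Fhod3 to Daam1 ratio, chosen after the values were seen, was 3.0 and 2.36 in the controls and 1.43 and 1.82 with PE. These groups did not overlap either, with a log2 difference of -0.72 and the same smallest exact permutation p of 0.333.

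Nebl (ENSRNOG00000049452) encodes nebulette and also, from another start, a short LIM-domain form known as Lasp-2; gene-level counts join the forms. It stood at 430 and 774 CPM in the controls and at 350 and 305 CPM with PE. Both PE libraries were lower, and control replicate 2 stood far above control replicate 1. The mean went from 602 ± 244 CPM to 328 ± 32.4 CPM (SD, n = 2 each), a log2 fold change of -0.88 ± 0.25 (SE; edgeR adjusted p = 0.0398; 95% interval -1.44 to -0.32). Its size depended on the control library used, at -1.24 with control replicate 2 alone and -0.39 with control replicate 1 alone. The call was lost without PE replicate 1 (-0.98) and without PE replicate 2 (-0.77), in fits that called fewer genes over the whole table.

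Lmod3 and Nebl shared the higher level in control replicate 2, by 0.64 and 0.85 on the log2 scale, and that library also had the larger mitochondrial share. With mitochondrial-genome genes left out of the table, Lmod3 was at -1.35 and Nebl at -0.89, both still past the threshold. That step removes the mitochondrial-genome genes and repeats the fit, and any other difference in the composition of control replicate 2 stays. It therefore cannot show whether these falls go with the composition of control replicate 2, which was not tested. Fhod3 did not share the difference, with control replicate 2 below control replicate 1 (log2 difference -0.08). Tmod3 and Daam1 were also higher in control replicate 2, by 0.58 and 0.27, while Fhod1 was lower there (-0.49).

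**Figure D3:**
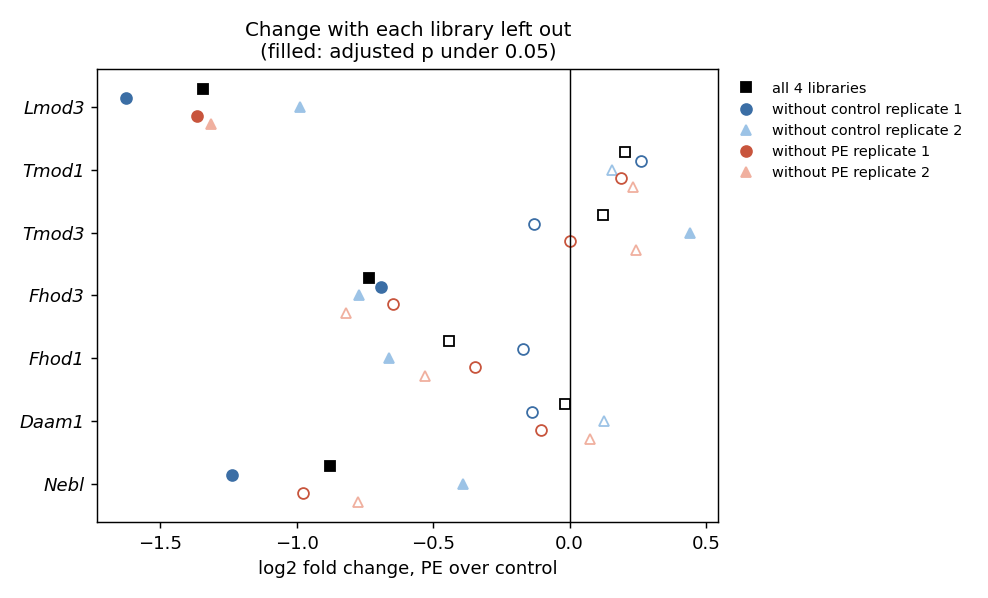
Log2 fold change of each gene with all 4 libraries (squares) and with each library left out (circles and triangles); filled symbols have an adjusted p under 0.05. Lmod3 is filled in all 5 fits, Fhod3 and Nebl are open when a PE library is left out, and the Nebl value moves between -1.24 and -0.39 with the control library used.

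Set against Tmod1 in the same library, 2 of the genes that fell gave lower ratios with PE; both ratios were chosen after the values were seen. There were 0.0102 and 0.0171 Lmod3 counts per Tmod1 count in the controls and 0.00463 and 0.00460 with PE, a log2 difference of -1.52. Nebl counts per Tmod1 count were 1.83 and 3.53 in the controls and 1.32 and 1.18 with PE, a log2 difference of -1.02, and of -0.55 without control replicate 2. Neither pair of groups overlapped, and the exact permutation p was 0.333 for each, the smallest possible. A ratio of counts is not a ratio of molecules, since the transcripts differ in length.

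The pattern most like that of Lmod3, which had the largest log2 fold change of the 7 in absolute size, was sought among 11049 named genes whose log2 CPM averaged at least 1. Likeness was the distance between log2 CPM values centred on their mean over the 4 libraries. The nearest were Acot13, an acyl-CoA thioesterase of mitochondria, at 0.125, Txlnb, the muscle taxilin, at 0.133, and Cdo1, cysteine dioxygenase, at 0.142. Txlnb stood at 137 and 198 CPM in the controls and 68.8 and 60.6 CPM with PE, so it too was higher in control replicate 2 and nearly level between the PE libraries. With 4 libraries many genes share a pattern, and the likeness is a description.

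Relatives of the 7 genes from the same families were mostly lower or did not pass. Of 15 other leiomodins, tropomodulins and formins, 12 were matched and 11 tested. In edgeR 4 were lower, 0 higher and 7 did not pass, with a median log2 fold change of -0.60, where 8.3% of all tested genes were lower. At an unadjusted p under 0.05, 6 were lower and 2 higher, and DESeq2 called 3 lower and 0 higher. Lmod1, the leiomodin of smooth muscle, fell from 7.57 and 4.41 CPM in the controls to 1.94 and 2.31 CPM with PE, a log2 fold change of -1.5 ± 0.29 (SE; edgeR adjusted p = 0.00619). Tmod2, the tropomodulin of neurons, fell from 1.49 and 2.02 CPM to 0.837 and 0.763 CPM, a log2 fold change of -1.13, close to the threshold (edgeR adjusted p = 0.0481). Tmod2 did not pass with DESeq2 (adjusted p = 0.0916), with any 1 PE library left out (adjusted p = 0.171 and 0.233) or without control replicate 2 (adjusted p = 0.109).

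Formins outside the list of 8 also fell in 2 cases. Fmnl1, a formin of blood cells, went from 14.1 and 11.5 CPM to 6.72 and 6.84 CPM (log2 fold change -0.92, edgeR adjusted p = 0.0111), and Fhdc1, a formin linked to microtubules and the Golgi, from 56.2 and 51.5 CPM to 32.7 and 32.1 CPM (-0.73, edgeR adjusted p = 0.0117). Leaving out PE replicate 1 ended both calls (adjusted p = 0.120 and 0.253), as did leaving out PE replicate 2 (adjusted p = 0.101 and 0.273). The most positive values were those of the diaphanous formins Diaph3, at 0.52 ± 0.18, and Diaph1, at 0.38 ± 0.16, and neither passed (edgeR adjusted p = 0.0747 and 0.150).

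Markers of other cell types were lower in part, by the edgeR test in which 8.3% of all tested genes were lower. The summed level of the 5 macrophage markers was 162 and 176 CPM in the controls and 111 and 113 CPM with PE, with 2 of 5 lower and 5 of 5 log2 fold changes negative. The 5 smooth muscle markers summed to 1049 and 688 CPM in the controls and 658 and 778 CPM with PE, overlapping between groups, with 2 lower (Tagln and Smtn), 1 higher (Cnn1) and 2 that did not pass. Cnn1 rose from 5.20 and 4.43 CPM to 141 and 162 CPM, which raised the PE sums. Log2 fold changes of the other 4 were negative, with PE below control in 3 and overlap in 1. The 4 endothelial markers summed to 190 and 191 CPM and to 115 and 117 CPM with PE, with 3 lower (Cdh5, Kdr and Vwf). Vwf did not pass with DESeq2 (adjusted p = 0.0667). Tek went the other way, at a log2 fold change of 0.24 with both PE libraries above both controls, and did not pass. The 6 fibroblast markers summed to 15853 and 12430 CPM and to 7928 and 8436 CPM with PE, with 2 of 5 tested lower (Col3a1 and Pdgfra). Most of each sum came from Col3a1 and Col1a1. Col1a1 was at -0.59 and did not pass in edgeR, while DESeq2 called it lower too (adjusted p = 0.0474), for 3 lower in that list. Within that list Dcn was at 0.50 and Tcf21 at 0.04 on the log2 fold change scale, neither passing, and Col1a2 had 1 to 5 counts per library. Their part in the falls of Fmnl1, Lmod1 and the 3 genes above was not tested.

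Of the 9 tested genes of the nebulin family, of barbed-end capping protein and of its kelch and Z-disc partners, 1 rose in edgeR, 0 fell and 8 did not pass (median log2 fold change 0.36), a share of risers near the 7.39% of all tested genes. DESeq2 called 3 higher (Nrap, Capza1 and Actn2), and 0 were lower at an unadjusted p under 0.05 or by DESeq2. Nrap, a relative of nebulin that gathers actin during myofibril assembly, rose from 493 and 456 CPM to 656 and 743 CPM, a log2 fold change of 0.56 ± 0.17 (SE; edgeR adjusted p = 0.0464). It lost its call without PE replicate 1 (adjusted p = 0.334), without PE replicate 2 (adjusted p = 0.562) and with library sizes alone (adjusted p = 0.0726). Neb itself was scarce, at 26 to 39 counts per library. The kelch gene Klhl40, whose protein stabilises leiomodin 3, stood at 11.7 and 7.61 CPM in the controls and 8.55 and 10.4 CPM with PE, a log2 fold change of -0.03 ± 0.24 (edgeR adjusted p = 0.956).

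The core of the thin filament had 3 of 7 genes higher, 0 lower and 4 that did not pass (median log2 fold change 0.41), where 7.39% of all tested genes were higher. Again 0 were lower at an unadjusted p under 0.05 in edgeR and 0 lower by DESeq2. Those that rose were the actins Acta1 (2.60) and Actc1 (1.53), whose similar sequences make the split of reads between them uncertain, and the troponin C gene Tnnc1 (0.81, edgeR adjusted p = 0.00931). The Tnnc1 call ended with PE replicate 1 (adjusted p = 0.167) or 2 (adjusted p = 0.112) left out. In the same libraries Lmod3, Fhod3 and Nebl were lower, and Acta1, Actc1 and Tnnc1 were higher, than in the controls.

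**Figure D4:**
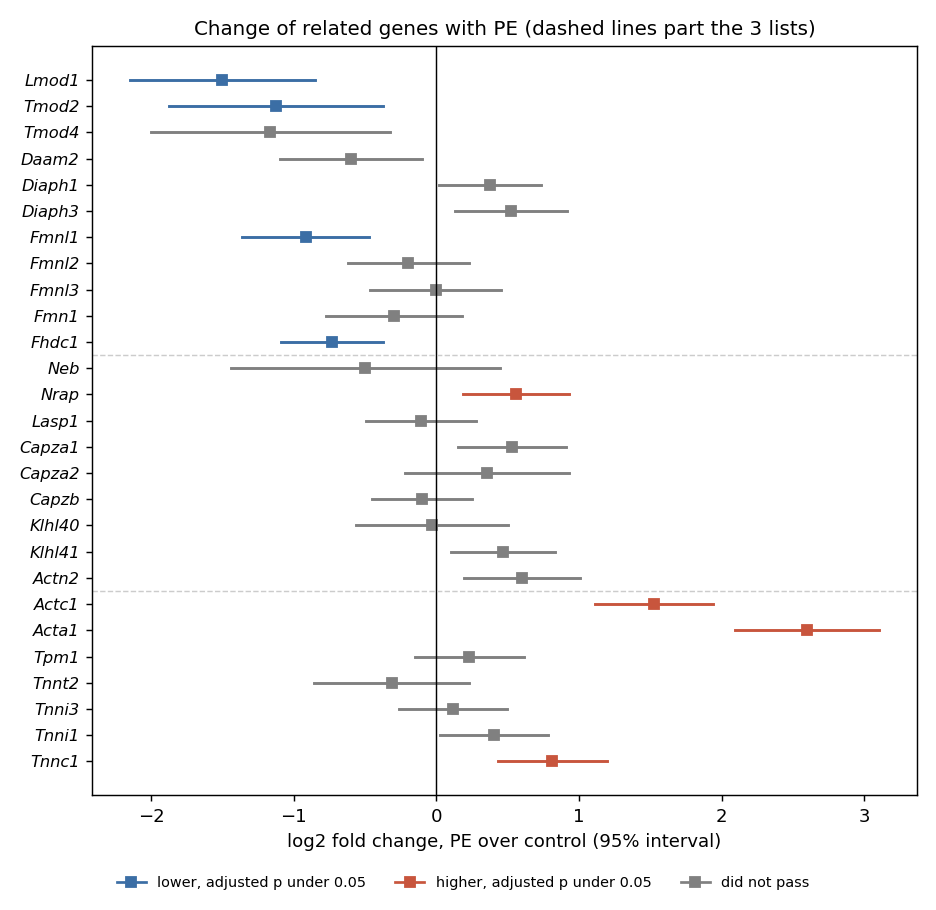
Log2 fold change and 95% interval of the tested genes of 3 related lists, separated by dashed lines: other leiomodins, tropomodulins and formins at the top, then nebulin family and barbed-end partners, and the thin filament core. Blue genes fell, red genes rose and grey genes did not pass; the 4 blue genes are all in the top list and the 4 red genes in the other lists.

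Among the 7 genes, 3 had an adjusted p under 0.05 in the authors' deposited table, all lower, where 16.8% of genes with an adjusted p were called in either direction. The DESeq2 fit reported above gave the same values for the 7 genes as that table, so the DESeq2 fit and the table are not separate checks. The log2 fold changes there were -1.34 for Lmod3, -0.73 for Fhod3 and -0.88 for Nebl in the authors' deposited table, with adjusted p of 0.00782, 0.000512 and 0.00423.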

How the data were processed

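The authors deposited raw counts per gene for 4 libraries and a table of their own comparison with log2 fold changes, a standard error, the mean normalized count (signal), a test statistic (score), a p-value and an adjusted p per gene, per the file headers. Per the submitters' processing notes, the tools were Cutadapt 2.0, STAR 2.4.2a and featureCounts 1.6.4, and the build Rnor_6.0; how each was run, and whether counting used strand, is not given in the sources used here. The authors' mean normalized counts and scores were not used.

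Groups came from the sample titles, because the treatment protocol is the same text for all 4. From the counts, edgeR 4.0.16 (R 4.3.3, limma 3.58.1) fitted a quasi-likelihood model of PE against control over all genes passing its default filter (minimum count 10, minimum total 15), with TMM factors and Benjamini-Hochberg adjustment; an adjusted p under 0.05 counted as a change. The standard error is the log2 fold change over the root of F. The fit was tested on simulated counts, where it recovered 10% of 1.5-fold, 68% of 2-fold, 92% of 4-fold and 98% of 8-fold changes. Of its 145 calls there, 11 were false. In that simulation 50 of 15257 genes changed at each fold, while edgeR called 15.7% of tested genes in the data. The adjustment depends on the share of genes that change, so these recovery rates need not hold for the data. A gene that did not pass may still have changed by 1.5-fold. Alternatives were DESeq2 1.42.0, other factors, no filter, mitochondrial genes left out, a replicate block and each library left out. Counts of replicates differed beyond sampling noise (chi-square per degree of freedom 133 and 19.8). Precision is limited by 2 libraries a group.

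The genes, the lists and the tests were chosen with earlier results of these data known. All 7 matched genes are named, with every listed related gene that passed; Klhl40, Neb, Diaph1 and Diaph3 were named after their values were seen. Of 4 planned ratios the 2 with Lmod2 were not run. One planned list of related genes is not reported here. Promoter stretches came from RefSeq (GRCr8).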

Additional observations from a re-analysis of the deposited data

How the results depend on the processing

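The direction and call of each of the 7 genes were the same with DESeq2, RLE factors, library sizes alone, no filter and mitochondrial-genome genes left out; leaving out 1 library changed calls or directions of Tmod3, Fhod1, Fhod3, Daam1 and Nebl. Calls among the 7 genes were 3, and 1 to 5 with 1 library left out. Genes called over the whole table were 2393, and 1205 to 4755 with 1 library left out; related genes called were 8, and 3 to 17. Where a group was down to 1 library, it was assumed to vary like the other pair. Tmod3 ranged from -0.13 to 0.44, and Daam1 from -0.14 to 0.12. The Tmod1 to Tmod3 log2 difference ranged from -0.28 to 0.40, and Fhod3 to Fhod1 from -0.52 to -0.11. With the replicate number as a block, 3 of the 7 genes, 5 related genes and 1964 genes in all were called; Nrap (adjusted p = 0.171), Tmod2 (adjusted p = 0.0588) and Fhdc1 (adjusted p = 0.0577) were not. Deviations of same-numbered libraries correlated at -0.45. With 2 libraries a group, crossed numbers give the same size with the sign turned, so this value cannot show whether or how the samples were paired. A block with crossed numbers, chosen after seeing the data, called 4677 genes, 4 of the 7 and 17 related genes. The Lmod3 call rests on 56 to 171 counts per library.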
